A study of Homo sapiens with 6 samples.

Results

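The long arm of chromosome 19 holds one of the largest gatherings of zinc finger genes in the human genome, and 164 of these genes, out of 22320 genes measured, were followed here on all 6 arrays of the study. A gene was included if it is protein coding, if its only array annotation symbol starts with ZNF or ZFP, and if its RefSeq GRCh38 start on chromosome 19 lies beyond 30 Mb. ZFP36, which carries a different kind of zinc finger, was left out. Of the 164 genes, 163 were matched to RefSeq by their current symbol and ZFP112 by an alias. Each gene was read by 1 to 17 probe sets, with a median of 6, and the gene's level is the mean of its probe sets on the log2 scale deposited by the authors. ZNF260 and ZNF816, and 3 RefSeq readthrough or divergent transcript entries of the same region, had no probe set with their symbol alone and were not analysed here. ZNF875 is annotated on the array by its older symbol HKR1, so the naming rule left it out of the 164 genes.

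HEL and SET2 are human leukemia lines, labelled as acute myeloid leukemia, and both are known as lines with a constitutively active JAK2 kinase. Cells of each line received lentiviral particles carrying a sponge transcript meant to bind the microRNA miR-125a, an shRNA aimed at IGF1R, a receptor tyrosine kinase, or the empty vector pLKO as control. All 6 cultures went through 96 h of puromycin selection and Trizol extraction, so no array comes from untransduced cells. Each combination of line and construct is 1 array. A line therefore has 3 arrays, 1 per construct, and a construct has 2 arrays, 1 per line. Nothing in the labels names separate cultures within a line and construct, so no spread between repeat cultures could be estimated. The p-values rest instead on how far the difference between lines varies from construct to construct. That variation mixes technical noise of single arrays with any response to a construct in 1 line only.

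Most zinc finger genes of chromosome 19 encode repressors in which an array of C2H2 fingers binds DNA and an N-terminal KRAB domain recruits the scaffold TRIM28 (KAP1). TRIM28 brings in the histone methyltransferase SETDB1 and HP1 proteins, and the bound site acquires trimethylated histone H3 lysine 9. Many of these proteins bind transposable elements. The genes arose by tandem duplication, so neighbours are often close in sequence, and a probe set can in principle bind the transcript of a paralog. Probe sequences were not used here, and a difference between close paralogs is uncertain for that reason.

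The arrays were alike at the level of all genes, with array medians between 5.69 and 5.75 and correlations across all genes of 0.977 to 0.991 within HEL, 0.987 to 0.993 within SET2 and 0.923 to 0.933 between lines. IGF1R stood at 8.56 on the HEL array labelled IGF1R shRNA and at 8.63 on the HEL control array. In SET2 it stood at 8.33 and 8.32. The shRNA minus control change of -0.03 (SE 0.15, limma adjusted p = 0.973) shows no fall of the targeted gene on these arrays, so "arrays labelled IGF1R shRNA" is used for them. The marker genes differed between lines: CD34 (progenitor), HBG1 (fetal globin), KLF1 and EPOR (erythroid) were lower in HEL, with log2 differences of -4.19, -2.25, -0.98 and -0.68, and GP9 (a platelet glycoprotein) and ITGB3 (a platelet integrin) were higher by 3.21 and 2.31, all with limma adjusted p under 0.05. HBG2 (0.20), ITGA2B (0.34) and PF4 (-0.10) of the same lists were not called. HBG1 was read by 1 probe set only, while HBG2, read by 5, averaged 5.13 in HEL and 4.93 in SET2. The summed level of the 4 measured erythroid markers was 30.02 to 30.74 on HEL arrays and 33.6 to 34.4 on SET2 arrays, and that of the 4 megakaryocyte markers was 35.5 to 37.3 on HEL arrays and 30.8 to 31.0 on SET2 arrays. The 4 myeloid markers summed to 26.5 to 28.5 on HEL arrays and 32.0 to 33.2 on SET2 arrays, a gap that is mostly CD34, as CD33 (0.00), MPO (-0.18) and KIT (-0.58) were not called. Markers of lymphoid, epithelial and connective tissue cells, 6 measured of 7, had mean levels of 3.83 to 5.84 in HEL and 3.73 to 5.89 in SET2, summing to 27.2 to 27.4 in HEL and 28.1 to 28.2 in SET2, and of these only EPCAM was called (-0.57, limma adjusted p = 0.03194). The part of these marker differences in the results below was not tested. In such bulk RNA, fewer cells of a kind and less RNA per cell cannot be told apart.

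The promoters of the genes at both ends of the difference between lines are shown first, because they set the CG content of single genes beside the size of the difference. Each sequence is the RefSeq window from 250 bases before to 50 bases after the annotated start, 5′ to 3′ on the gene's strand, in assembly GRCh38.p14, with every CG dinucleotide in capitals. The first 4 are the genes that were furthest below SET2 in HEL. They lie at chr19:53159004-53159303 (ZNF347, minus strand), chr19:57709155-57709454 (ZNF154, minus strand), chr19:44448423-44448722 (ZNF229, minus strand) and chr19:37506689-37506988 (ZNF793, plus strand). The last 2 are the genes with the smallest difference between lines among those with a mean level of 7 or more, at chr19:56121246-56121545 (ZNF787, minus strand) and chr19:51571033-51571332 (ZNF175, plus strand).
ZNF347: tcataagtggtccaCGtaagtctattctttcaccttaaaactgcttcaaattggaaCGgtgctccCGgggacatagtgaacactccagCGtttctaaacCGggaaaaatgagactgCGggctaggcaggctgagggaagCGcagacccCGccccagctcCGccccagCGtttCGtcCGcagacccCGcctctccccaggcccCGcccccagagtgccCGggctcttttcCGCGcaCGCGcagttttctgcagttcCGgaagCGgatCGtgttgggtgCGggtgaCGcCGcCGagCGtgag
ZNF154: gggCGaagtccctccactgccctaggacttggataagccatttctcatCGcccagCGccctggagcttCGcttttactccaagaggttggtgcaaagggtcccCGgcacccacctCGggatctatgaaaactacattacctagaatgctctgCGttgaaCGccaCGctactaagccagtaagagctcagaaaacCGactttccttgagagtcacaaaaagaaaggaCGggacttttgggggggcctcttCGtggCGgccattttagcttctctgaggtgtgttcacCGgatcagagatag
ZNF229: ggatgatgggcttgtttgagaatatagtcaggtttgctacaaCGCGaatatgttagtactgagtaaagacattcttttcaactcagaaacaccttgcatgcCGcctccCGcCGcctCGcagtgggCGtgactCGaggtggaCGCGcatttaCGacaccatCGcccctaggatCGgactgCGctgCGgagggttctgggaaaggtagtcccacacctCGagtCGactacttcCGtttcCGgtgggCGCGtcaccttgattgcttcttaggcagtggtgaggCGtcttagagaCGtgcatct
ZNF793: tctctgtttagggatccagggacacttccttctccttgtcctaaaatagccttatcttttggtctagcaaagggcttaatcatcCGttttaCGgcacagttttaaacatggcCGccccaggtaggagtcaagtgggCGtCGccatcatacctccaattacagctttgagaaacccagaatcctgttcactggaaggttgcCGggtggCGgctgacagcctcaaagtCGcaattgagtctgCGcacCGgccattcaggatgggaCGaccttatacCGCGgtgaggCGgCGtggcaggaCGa
ZNF787: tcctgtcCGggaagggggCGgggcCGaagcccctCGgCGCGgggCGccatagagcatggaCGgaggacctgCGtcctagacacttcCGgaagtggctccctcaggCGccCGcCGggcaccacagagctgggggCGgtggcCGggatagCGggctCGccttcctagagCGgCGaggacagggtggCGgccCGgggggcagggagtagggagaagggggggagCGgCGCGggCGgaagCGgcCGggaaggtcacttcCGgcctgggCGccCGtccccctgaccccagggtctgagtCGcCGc
ZNF175: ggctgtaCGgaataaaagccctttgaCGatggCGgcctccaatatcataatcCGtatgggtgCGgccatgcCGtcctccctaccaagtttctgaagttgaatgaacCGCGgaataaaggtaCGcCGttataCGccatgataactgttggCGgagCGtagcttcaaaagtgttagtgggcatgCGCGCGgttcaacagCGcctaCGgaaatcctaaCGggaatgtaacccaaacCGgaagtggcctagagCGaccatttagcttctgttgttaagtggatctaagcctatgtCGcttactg

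These windows hold 27 CG dinucleotides in ZNF347, 14 in ZNF154, 23 in ZNF229, 16 in ZNF793, 32 in ZNF787 and 22 in ZNF175. A RefSeq window was at hand for 142 of the 164 genes. Their median was 23 CG dinucleotides per window, against 14 over all 27305 windows in the RefSeq table. The median was 22 in the 36 genes that were 1 log2 unit or more lower in HEL, 22 in the 50 other genes called lower and 23 in the 56 genes not called. The letters CCGGAAG, or CTTCCGG on the other strand, which is the core bound by ETS factors, stood in 69 of the 142 windows (48.6%), against 10.7% of all windows. They stood in 41 of 86 windows of genes called lower in HEL (47.7%) and in 28 of 56 others. Of the 6 sequences above, the windows of ZNF347, ZNF787 and ZNF175 hold them. The YY1 core ATGGCG (or CGCCAT) stood in 19.7% of the members' windows and 11.01% of all windows, the CRE palindrome TGACGTCA in 1.41% and 1.98%, and TATAAA (or TTTATA) in 0.704% and 11.95%. A letter match is a description of the window and not evidence of binding.

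The first comparison sets HEL against SET2 across the 3 constructs. Zinc finger genes of 19q were lower in HEL as a group: 103 of 164 were called lower and 0 were called higher, with 61 not past the threshold (limma with construct as a term, Benjamini-Hochberg adjusted p under 0.05 over all genes). Over all genes, 24.5% were called in either direction, 13.0% lower and 11.6% higher. The median difference, HEL minus SET2, was -0.75 on the log2 scale for the 164 genes (quartiles -1.05 and -0.37) and 0.01 for all genes. The difference was negative in 148 genes. It was -1 or less in 47 genes, where 4.46% of all genes lay, and 1 or more in 0 genes, where 3.71% of all genes lay.

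Single arrays gave the same picture. The median level of the 164 genes was 5.92 on the HEL sponge array, 6.22 on the HEL array labelled IGF1R shRNA and 5.95 on the HEL control array. On the SET2 arrays it was 6.92 with the sponge, 6.82 under the shRNA label and 7.01 in the control, while the median over all genes stayed between 5.50 and 5.54 on all 6 arrays. The 3 HEL values lay below the 3 SET2 values with no overlap in 122 genes (20.0% of all genes did so). They lay above them in 2 genes, ZNF233 and ZNF579, against 19.2% of all genes. Within a construct the median difference was -0.82 in the sponge arrays, -0.45 in the arrays labelled IGF1R shRNA and -0.86 in the control arrays. Among the 1015 probe sets behind the 164 genes, 513 had all HEL values below all SET2 values and 17 had all HEL values above. Over all 259224 probe sets with 1 symbol the shares were 15.2% and 14.6%. In 21 genes every probe set had all HEL values below all SET2 values, among them ZNF865, which has only 1 probe set. The matching share over all genes was not counted, so this number is a description.

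The count of genes called lower depends on the arrays used and on how probe sets are joined. It was 67 without either control array, where 7.41% of all genes were called lower, 63 without either sponge array (7.11%) and 118 without either array labelled IGF1R shRNA (15.2%). Of the 103 genes, 61 were called in each of these fits. With only the brightest probe set of each gene it was 57, next to 6.17% of all genes, of which 55 were among the 103, and 148 of the 164 differences were again negative.

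Zinc finger genes elsewhere on chromosome 19 were also mostly lower in HEL. Of 79 zinc finger genes on the rest of chromosome 19, 58 (73.4%) were called lower in HEL and 1 higher, with a median difference of -1.22. Of 277 zinc finger genes on other chromosomes, 68 (24.5%) were called lower and 19 higher, with a median of -0.08. The 569 other protein-coding genes of 19q had 85 (14.9%) called lower and 37 higher, with a median of -0.04. They share the chromosome arm but include zinc finger genes with other symbols, among them HKR1, ZIK1, ZSCAN18 and ZSCAN22, all called lower. These groups are given as counts, and the differences between them were not tested. Genes called lower were found at every level: the share called lower was 46.2% in the 13 genes with a mean level under 5 and 69.2% in the 13 genes at 8 or above, where 4.57% and 19.8% of all genes in the same bands were called lower.

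**Figure D1:**
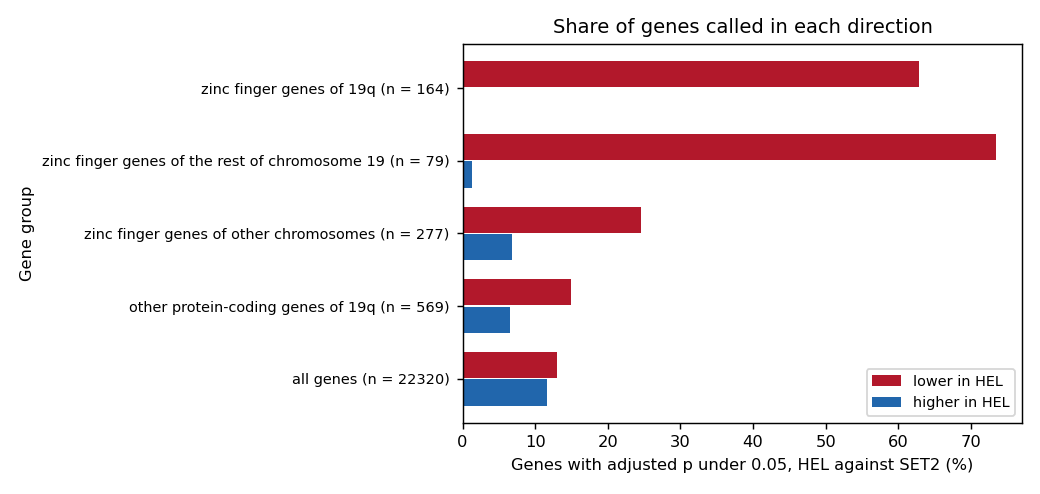
Share of genes called lower (red) and higher (blue) in HEL against SET2, in percent of each gene group on the horizontal axis (limma, adjusted p under 0.05, all 6 arrays). Of the zinc finger genes of 19q, 103 of 164 were called lower and 0 higher, and over all genes 13.0% were called lower and 11.6% higher.

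In chromosome order the genes fell into 7 clusters of 5 or more, split wherever more than 5 other protein-coding genes stood between neighbours, with 147 genes in clusters and 17 outside. The cluster from ZNF565 to ZNF573, with 27 genes, was the most uniform: 26 were called lower, all 27 had their 3 HEL values below their 3 SET2 values, and the median difference was -0.90. In it stood the longest run, 24 genes in a row called lower from ZNF565 to ZNF571. HKR1, the other protein-coding gene inside it and a zinc finger gene by another symbol, was also called lower. The cluster from ZNF577 to ZNF331 had 29 of 37 genes called lower and the largest median difference, -1.03, while none of the 5 other protein-coding genes inside it (PPP2R1A, ERVV-1, ERVV-2, VN1R2 and VN1R4) was called.

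The remaining clusters were less even. From ZNF302 to ZNF792, 4 of 5 genes were called lower with a median of -0.79. From ZNF283 to ZNF180, 10 of 20 were called lower with a median of -0.68, and from ZNF582 to ZNF835, 7 of 8 with a median of -0.92. The cluster nearest the chromosome end, from ZNF264 to ZNF446, had 24 of 43 called lower with a median of -0.73. Of its 10 other protein-coding genes 5 were called lower, namely VN1R1, ZIK1, ZSCAN18, ERVK3-1 and ZSCAN22, of which ZIK1, ZSCAN18 and ZSCAN22 are zinc finger genes too. The cluster from ZNF628 to ZNF580 stood apart, with 1 of 7 genes called lower and a median of -0.09, next to a median of 0.05 for the 5 other genes inside it, of which SSC5D was called higher (1.27). Uncalled genes also ran together: 8 in a row from ZNF579 to ZNF444, 6 from ZNF296 to ZNF577 and 5 from ZNF574 to ZNF428. The cluster limits were chosen with the values known, so these counts are descriptions.

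**Figure D2:**
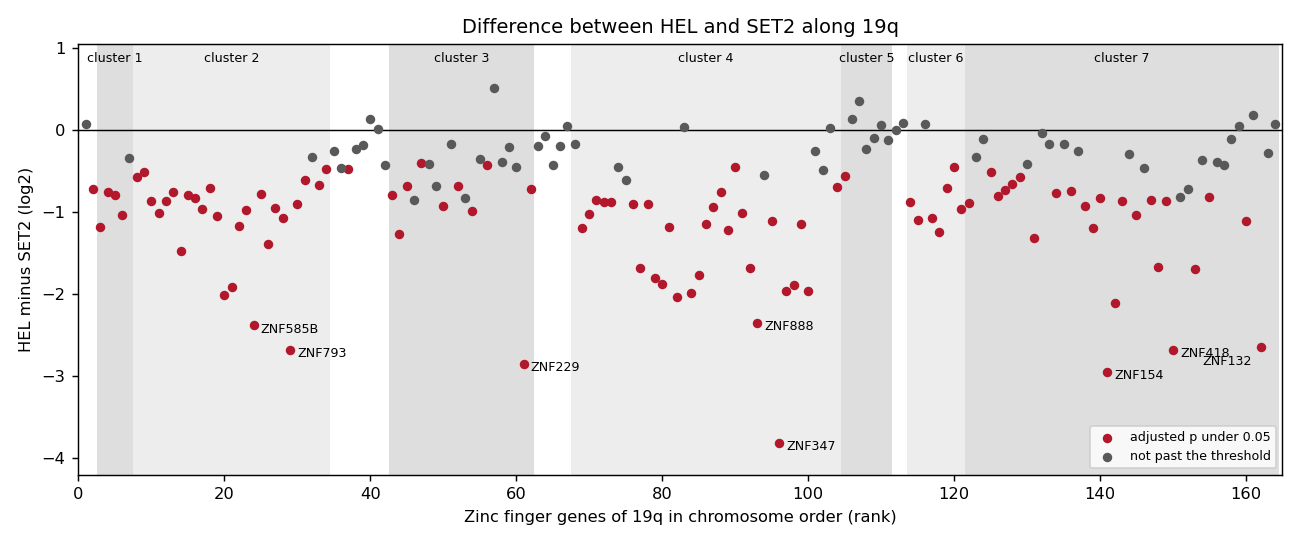
Difference HEL minus SET2 (log2, vertical axis) of the 164 zinc finger genes by their rank along 19q, with grey bands for clusters 1 to 7 and red points for genes with adjusted p under 0.05. The 27 genes of the second cluster all lie below 0, and the 7 genes of the fifth lie around 0 with a median of -0.09.

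The gene with the largest difference was ZNF347, a gene of the ZNF577 to ZNF331 cluster. It stood at 3.49, 3.33 and 3.78 on the HEL arrays (sponge, shRNA label and control, the order used for all values by array) and at 7.38, 7.18 and 7.48 on the SET2 arrays. The HEL values lie near the bottom of the measured range of 1.61 to 13.99 and the SET2 values well above the median of all genes, 5.55. The mean was 3.54 ± 0.23 in HEL and 7.35 ± 0.15 in SET2 (SD, n = 3 arrays each), a difference of -3.81 (SE 0.12, limma adjusted p = 7.689e-06), or 14.05-fold lower. As no background call was available, signal near that bottom may not measure transcript, and folds from it may understate the difference.

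ZNF154, a gene whose promoter is known for methylation in many tumours, stood at 4.13, 4.07 and 4.18 in HEL and at 7.10, 7.06 and 7.07 in SET2. The 3 arrays of a line lay close together, with an SD of 0.05 in HEL and 0.02 in SET2, and the difference was -2.95 (SE 0.12, limma adjusted p = 1.631e-05). With its brightest probe set alone the difference was -1.24. ZNF229 stood at 4.83, 5.18 and 4.79 in HEL and at 7.768, 7.582 and 7.998 in SET2, a difference of -2.85 (SE 0.17, limma adjusted p = 8.963e-05), or -1.58 with its brightest probe set alone. It lies in the cluster where 10 of 20 genes were called, and its neighbour ZNF285 was not called.

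ZNF793 stood at 4.202, 4.218 and 4.294 in HEL and at 6.97, 6.99 and 6.80 in SET2. ZNF418, a KRAB gene of the last cluster, stood at 3.97, 4.65 and 4.18 in HEL and at 6.85, 7.09 and 6.89 in SET2. Both differences were -2.68 (limma adjusted p = 3.118e-05 and 4.195e-05). ZNF132, like ZNF154 known for promoter methylation in tumours, stood at 4.30, 4.36 and 4.46 in HEL and at 7.06, 6.70 and 7.30 in SET2, a difference of -2.65 (SE 0.14, limma adjusted p = 5.511e-05), and with its brightest probe set alone the difference was -0.89 and not past the threshold. In none of these genes did the 2 lines' values overlap.

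The remaining 6 of the 12 largest falls were ZNF585B (-2.38), ZNF888 (-2.35), ZNF671 (-2.11), ZNF528 (-2.03), ZNF829 (-2.005) and ZNF578 (-1.98), with limma adjusted p from 6.068e-05 to 0.01066. ZNF829 and ZNF578 had one HEL array apart from the others. ZNF829 stood at 4.45 and 4.36 on the HEL sponge and control arrays but at 6.01 on the HEL array labelled IGF1R shRNA, against 7.05, 6.70 and 7.08 in SET2. ZNF578 stood at 3.54, 5.31 and 3.81 in HEL and at 6.22, 5.95 and 6.45 in SET2. Of the 12 genes, 9 were called under every alternative tried. ZNF132 and ZNF671 lost the call with the brightest probe set alone. ZNF578 lost it there too, at -4.21, and without either control array, where the difference was -1.65 with a limma adjusted p of 0.05263.

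**Figure D3:**
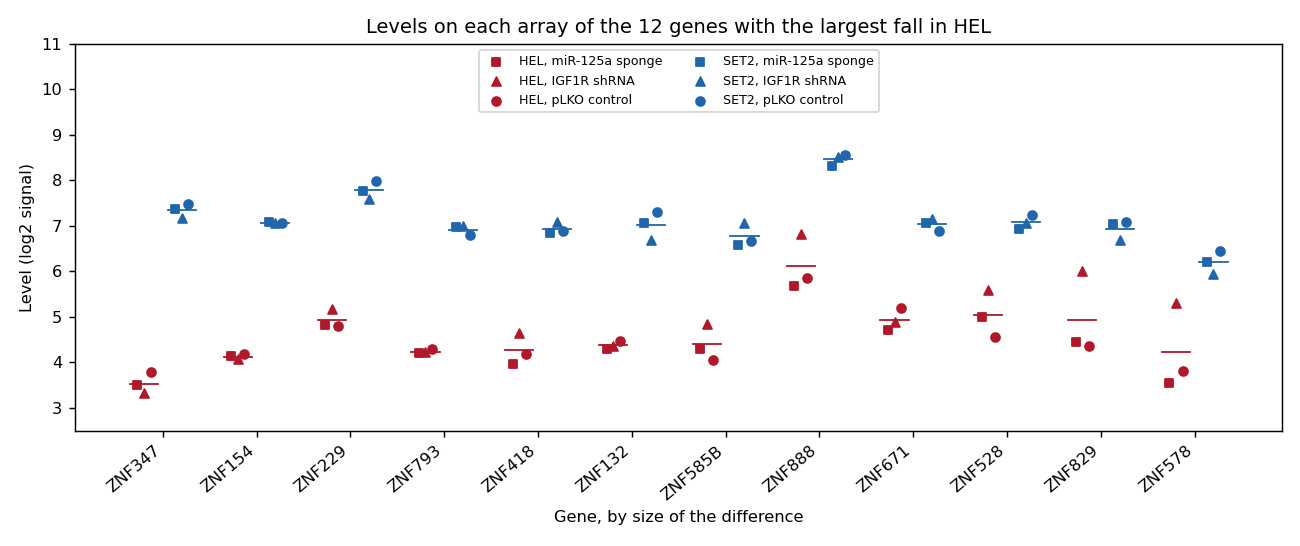
Level on each array (log2 signal, vertical axis) of the 12 zinc finger genes with the largest fall, HEL in red to the left of SET2 in blue, with the construct as symbol and a line at the mean of 3 arrays. No HEL value reaches a SET2 value of the same gene, and in ZNF829 and ZNF578 the HEL triangle (shRNA label) lies above the other HEL points, at 6.01 and 5.31.

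No member was called higher in HEL. Only 5 had a positive difference under each construct, all small: ZNF233 (0.51, SE 0.18, limma adjusted p = 0.08979), ZNF524 (0.35, adjusted p = 0.1392), ZNF579 (0.13), ZNF536 (0.07, but -0.44 with its brightest probe set) and ZNF837 (0.06). ZNF233 stood at 3.72, 3.92 and 4.04 in HEL and at 3.70, 3.28 and 3.15 in SET2, so that its values came close without crossing, all of them low. It lies within the ZNF283 to ZNF180 cluster, where the other 19 genes had negative differences. ZNF233 passed the threshold without either sponge array, and ZNF524 without either array labelled IGF1R shRNA. ZNF175, a gene known for restricting HIV and whose promoter is printed above, stood at 7.95, 7.99 and 7.88 in HEL and at 7.96, 7.65 and 8.06 in SET2. ZNF787 stood at 7.93, 7.46 and 7.89 in HEL and at 7.80, 7.68 and 7.78 in SET2. In both genes the lines overlapped.

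Members known for promoter methylation in cancers were called lower in HEL in 10 of 11 cases, next to 13.0% of all genes and 62.8% of the 164 members. The list median was -1.47, against -0.75 for the members and 0.01 for all genes. Besides ZNF154, ZNF132 and ZNF671 these were ZNF677 (-1.89), ZNF135 (-1.70), ZNF382 (-1.47), ZNF471 (-1.07), ZFP82 (-1.01), ZNF582 (-0.88) and ZNF331 (-0.69), with limma adjusted p under 0.05. The probe sets of ZNF677 disagreed: the gene stood at 4.34, 4.46 and 3.95 in HEL and at 6.09, 6.17 and 6.16 in SET2, while its brightest probe set alone differed by -0.07 and the mean without dim probe sets by -2.21. ZNF135 and ZNF582 also lost the call with the brightest probe set, at -0.43 and -0.45. ZNF582 and ZNF331 lost it without either control or either sponge array. ZNF667 was the exception, at 6.72, 6.85 and 6.60 in HEL and 6.81, 6.45 and 6.70 in SET2, with a difference of 0.07 (95% interval -0.27 to 0.42) that turned to -0.09 without either array labelled IGF1R shRNA. Its cluster neighbours ZNF583 and ZNF471 were both called lower. Methylation was not measured in these samples. This list and the lists of roles, KRAB machinery and DNA methylation below were chosen with earlier results of these data known. Their counts are therefore descriptions. ZNF154, ZNF132 and ZNF671 also stand among the 12 largest falls above.

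Of 6 members with well-studied roles, 5 were called lower, next to 13.0% of all genes and 62.8% of the 164 members, with a list median of -0.69. ZNF274, which binds the 3′ ends of zinc finger genes and brings SETDB1 to them, stood at 7.01, 7.54 and 7.01 in HEL and at 7.98, 7.88 and 8.14 in SET2, a difference of -0.81 (SE 0.17, limma adjusted p = 0.01593). ZNF350 (ZBRK1, a repressor that works with BRCA1) differed by -0.85, ZNF224 (a partner of WT1) by -0.68, ZNF331 by -0.69 and ZNF146 (OZF, made almost only of zinc fingers) by -0.52, with limma adjusted p from 0.008957 to 0.04423. ZNF473, which acts in the 3′ processing of histone mRNA, differed by -0.19 (95% interval -0.48 to 0.10, limma adjusted p = 0.3357). The 5 calls were each lost without either control array (limma adjusted p 0.05816 to 0.2188) and without either sponge array (0.05376 to 0.1981), where the differences stayed negative. All but that of ZNF331 were also lost with the brightest probe set. Of 14 alternatives in all, ZNF224 kept its call in 7, ZNF350 in 8, ZNF274 and ZNF146 in 9 each, and ZNF331 in 10.

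Of 17 genes of the machinery through which KRAB proteins act, 4 were called lower in HEL and 0 higher, with a median of -0.16. Over all genes 13.0% were called lower and 11.6% higher. Counted in either direction, 4 of 17 is near the 24.5% of all genes. The 4 were ATRX, a chromatin remodeller (-1.13, limma adjusted p = 0.000797), ATF7IP, the partner of SETDB1 (-0.96, adjusted p = 0.001824), SMARCAD1, a remodeller that binds TRIM28 (-0.65), and EHMT1, a histone H3 lysine 9 methyltransferase (-0.62). The calls of SMARCAD1 and EHMT1 were lost without either sponge array, and those of ATF7IP, SMARCAD1 and EHMT1 with the brightest probe set. EHMT1 kept its call in 10 of 14 alternatives. TRIM28 itself averaged 9.50 ± 0.21 in HEL and 9.59 ± 0.16 in SET2, and SETDB1 7.40 ± 0.36 in HEL and 7.16 ± 0.15 in SET2 (SD, n = 3 each), with limma adjusted p of 0.7713 and 0.3894. Among 8 genes of DNA methylation and its removal, DNMT3B, a de novo methyltransferase, was higher in HEL by 1.34 (limma adjusted p = 0.001007) and DNMT1, the maintenance enzyme, by 0.41 (adjusted p = 0.04581, lost without either control or either sponge array, and with the median or brightest probe set or dim probe sets left out, where adjusted p reached 0.3785). The dioxygenases TET1 and TET2, which oxidise methylcytosine, were lower by 1.58 (limma adjusted p = 0.0004297) and 0.98 (adjusted p = 0.001644). DNMT3A (0.31), UHRF1 (0.08), HELLS (0.36) and TET3 (-0.09) were not called. Thus 2 of the 8 were called higher and 2 lower, next to 24.5% of all genes in either direction. The list median was 0.20. Whether any of these differences bears on the zinc finger genes was not tested.

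The second comparison asked whether the constructs changed the same genes, with the line as block. For the arrays labelled IGF1R shRNA against control, 0 of the 164 genes were called by limma, as were 0% of all genes, and 9 members and 7.42% of all genes had an unadjusted p under 0.05. In HEL the median change of the 164 genes was 0.20 and 115 were higher under the shRNA label (50.1% of all genes were), with 46 genes (28.0%) at 0.5 or more against 7.96% of all genes, and 7 at -0.5 or less against 7.62%. In SET2 the median was -0.09 and 57 were higher (45.0% of all genes were), with 2 genes at 0.5 or more against 3.34% and 11 at -0.5 or less against 5.47%. In both lines together 42 genes were higher, where 22.5% of all genes lay, and 32 were lower, where 27.0% lay. Each of these within-line changes is 1 array minus 1 array with no replicate check. The HEL value under the shRNA label also enters the difference between lines given above, so the 2 comparisons share that array.

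By cluster, the median change in HEL was 0.42 from ZNF565 to ZNF573, 0.39 from ZNF283 to ZNF180, 0.39 from ZNF577 to ZNF331, 0.32 from ZNF582 to ZNF835, 0.29 from ZNF302 to ZNF792, 0.09 from ZNF264 to ZNF446 and -0.07 from ZNF628 to ZNF580. In SET2 the 7 cluster medians lay between -0.24 and 0.06. The zinc finger genes on the rest of chromosome 19 had a median change of 0.37 in HEL, those on other chromosomes 0.02 and the other genes of 19q -0.05.

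When ordered by whichever line changed less, among genes with a mean level at or above the median of all genes, the leading genes of one direction were ZNF585B, ZNF345 and ZNF836 upward and ZNF415, ZNF808 and ZNF581 downward, none past the threshold. ZNF585B stood at 4.83 under the shRNA label and 4.06 in control HEL cells, and at 7.07 under the label and 6.67 in control SET2 cells, a change of 0.58 (SE 0.16, limma adjusted p = 0.6235). ZNF345 changed by 0.48 and ZNF836 by 0.46. ZNF415 changed by -0.34, ZNF808 by -0.29 and ZNF581 by -0.23, with limma adjusted p from 0.6235 to 0.7459 over these genes. ZNF585B turned to -0.0850 with its brightest probe set, and ZNF808 to 0.53 with dim probe sets left out. Without the SET2 array labelled IGF1R shRNA, so that the HEL array alone carries the label, 15 members were called, 13 higher (1.48% of all genes were) and 2 lower (1.78% of all genes were). With any other single array left out 0 members were called.

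Changes of 1 log2 unit or more were found in 10 genes in HEL, 8 upward and 2 downward, where 1.34% and 1.30% of all genes lay. In SET2 there was 1 each way, next to 0.314% and 0.444%. These genes were picked after their values were seen. ZNF480 stood at 7.86 under the shRNA label and 6.45 in control HEL cells, and at 8.85 under the label and 8.80 in control SET2 cells. ZNF568, ZNF850, ZNF221, ZNF570 and ZNF528 were higher under the label in HEL by 1.22, 1.18, 1.06, 1.03 and 1.02, and changed by -0.16, -0.22, -0.86, 0.27 and -0.16 in SET2. ZNF829 and ZNF578 were higher by 1.656 and 1.504 in HEL and changed by -0.39 and -0.50 in SET2. ZNF428 was lower by 1.61 in HEL, at 4.12 under the label and 5.73 in the control, and changed by 0.20 in SET2. ZNF761, read by a single probe set, was lower by 1 log2 unit in HEL, at 4.33 under the label and 5.33 in the control. In SET2, ZNF222 changed by 1.08 and ZFP28 by -1.02.

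Whether the response to the shRNA label differed between lines was tested by adding a term for it, so that the gap between lines under the label is set against the gap in the sponge and control arrays. This leaves 1 residual degree of freedom, and the term was added after the data had been seen. It was called in 3 of the 164 genes, against 0.636% of all genes: ZNF578 (2.02, limma adjusted p = 0.03253), ZNF829 (1.98, adjusted p = 0.03644) and ZNF428 (-1.79, adjusted p = 0.04191). The median of the term was 0.28 for the 164 genes and 0.02 for all genes, and 57 members and 17.3% of all genes had an unadjusted p under 0.05. The count moved with the processing: it was 0 with the median or the brightest probe set, 0 with dim probe sets left out, 9 after quantile normalization (1.87% of all genes), 13 with shared probe sets included (2.40%) and 21 of the 134 members left when dim genes were left out (9.70%).

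**Figure D4:**
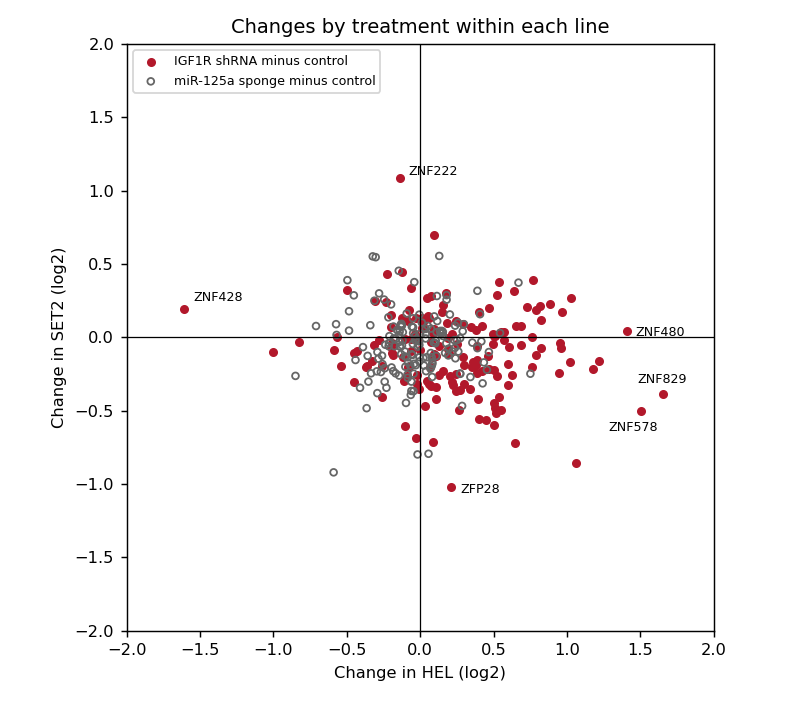
Change of each of the 164 genes against control in HEL (horizontal axis, log2) and in SET2 (vertical axis, log2), for the arrays labelled IGF1R shRNA (red points) and the miR-125a sponge arrays (open circles), 1 array minus 1 array each. Red points spread to the right, with 46 genes at 0.5 or more in HEL, and open circles stay around 0.

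The sponge is aimed at miR-125a, whose gene lies on 19q among the zinc finger genes, between ZNF175 and ZNF577. The labels name neither the arm of the microRNA nor the sequence of the sponge. The RefSeq mature sequence of the 5p arm is shown as the better known of the arms, with its seed, bases 2 to 8, in capitals.
hsa-miR-125a-5p: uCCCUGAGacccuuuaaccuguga

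With the sponge the zinc finger genes stayed close to control. Limma called 0 of the 164 genes and 0% of all genes, and 3 members and 1.85% of all genes had an unadjusted p under 0.05. Medians of the change were -0.05 in either line, with 67 genes higher in HEL (48.3% of all genes were) and 62 in SET2 (42.7%). Both lines were higher in 27 genes, against 21.0% of all genes, and both lower in 62, against 29.6%. In HEL there were 3 genes at 0.5 or more and 5 at -0.5 or less, where 2.16% and 1.93% of all genes lay. In SET2 there were 3 at 0.5 or more and 3 at -0.5 or less, against 1.69% and 1.55%. The response did not differ between lines in any member by limma's adjusted p (0 called, 0% of all genes, and 1 member and 1.28% of all genes at an unadjusted p under 0.05).

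When ordered by whichever line changed less, among genes at or above the median level of all genes, the sponge changes of one direction were led by ZNF480 (0.52), ZNF345 (0.35) and ZNF565 (0.22) upward and by ZNF808 (-0.42), ZNF468 (-0.38) and ZNF584 (-0.33) downward. ZNF808 stood at 5.37 with the sponge and 5.73 in control HEL cells, and at 6.998 with the sponge and 7.48 in control SET2 cells, a change with a 95% interval of -0.78 to -0.07 and an unadjusted limma p of 0.02648. Each of the 6 had a limma adjusted p of 1, and ZNF808 turned to 0.0350 with dim probe sets left out. The interval holds for this gene alone and does not allow for the number of genes tested.

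The neighbours of the microRNA gene were not called. ZNF175 stood at 7.95 with the sponge and 7.88 in control HEL cells, and at 7.96 with the sponge and 8.06 in control SET2 cells. ZNF577 stood at 7.29 with the sponge and 7.18 in control HEL cells, and at 7.81 with the sponge and 7.53 in control SET2 cells.

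Sponge arrays set against arrays labelled IGF1R shRNA again gave 0 called members, 0% of all genes, and 11 members and 6.85% of all genes at an unadjusted p under 0.05 by limma. The median difference was -0.24 in HEL, with 40 genes higher (47.6% of all genes were), 3 at 0.5 or more against 7.39% and 42 at -0.5 or less against 7.40%. In SET2 it was 0.05, with 94 genes higher (51.0% of all genes were), 5 at 0.5 or more against 3.84% and 3 at -0.5 or less against 3.24%. Both lines were higher with the sponge in 24 genes, against 25.1% of all genes, and lower in 54, against 26.1%. By the same ranking the leading genes were ZNF83 (0.50), ZNF415 (0.33) and ZNF146 (0.28) upward and ZNF836 (-0.78), ZNF585B (-0.52) and ZNF813 (-0.35) downward, with limma adjusted p from 0.7252 to 0.7721. With the brightest probe set, ZNF585B turned to 0.55, and ZNF146 and ZNF813 gave 0.00. ZNF836 stood at 4.25 with the sponge and 5.50 under the shRNA label in HEL, and at 6.51 with the sponge and 6.81 under the label in SET2. This comparison shares the arrays labelled IGF1R shRNA with the one before it. Without the SET2 array of that label 13 members were called, 2 higher (1.48% of all genes were) and 11 lower (1.52%).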

How the data were processed

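Each of 6 RNA preparations was measured on a Human Gene 2.0 ST array. The authors deposited log2 values for 352859 probe sets per array, and the submitters' processing notes name Affymetrix Expression Console. That the scale is log2 was read from the values. Summarisation, background correction, normalisation and genome build are not given in the sources used here. Platform annotation gave 1 gene symbol to 259224 probe sets, several to 13116 and none to 80519, and only the first were used, averaged per symbol to 22320 genes. Of these, 22255 were found in the RefSeq table.

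All genes were fitted together with limma 3.58.1 in R 4.3.3 (lmFit and eBayes, 2 residual and 4.78 prior degrees of freedom) on all 6 arrays with line and construct as terms, and p-values were adjusted by Benjamini-Hochberg over all genes. The line serves as the replicate block of the construct contrasts, since both replicates of a construct differ by line. Intervals are 95% intervals of single genes. No scan batch was given in the sources used here, and precision is limited by the number of arrays. No file held identical arrays.

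Members and lists were chosen with earlier results of these data known. Genes named are the 12 with the largest called fall and, with none called higher, those positive under each construct; for each construct contrast, 3 in each direction by the smaller change of both lines, at or above the median level; and the listed genes.

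The fit was tested on simulated data of 22320 genes with 200 changed. For HEL against SET2 it recovered 0.5% of changes of 0.5, 99.5% of changes of 1 and 100% of changes of 2 log2 units, with 0, 19 and 38 false calls. For IGF1R shRNA against control the shares were 0%, 89% and 100%, with 2, 12 and 18 false calls. In the data 24.5% of all genes were called for HEL against SET2, so the adjusted threshold was looser there than in the simulation. Smaller differences, such as that of ZNF155 (-0.40), were called in the data, so the simulated shares do not carry over to that contrast. Alternatives were other ways to join probe sets, filters on dim genes or probe sets, quantile normalization, a trended prior, no block, and each array left out. Figures were drawn with matplotlib 3.10.9.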

Additional observations from a re-analysis of the deposited data

Results flagged for a closer look

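In 3 zinc finger genes of 19q the response to the construct labelled IGF1R shRNA differed between HEL and SET2 by a test of the difference itself (limma, with 1 residual degree of freedom): ZNF829 by 1.98 log2 units, ZNF578 by 2.02 and ZNF428 by -1.79. Each value is the gap HEL minus SET2 under the label minus the mean gap in the sponge and control arrays. In ZNF829 the gap was -0.69 under the label, against -2.60 with the sponge and -2.73 in the control. In ZNF578 it was -0.63 under the label, against -2.67 with the sponge and -2.64 in the control. In ZNF428 it was -1.62 under the label, against 0.16 with the sponge and 0.19 in the control. All 3 rest on 1 HEL array, on which IGF1R itself was not lower, and none was called with the median or the brightest probe set.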

How the results depend on the processing

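Members called lower in HEL numbered 103, and 63 to 118 with 1 array left out; leaving out either array of a construct gave the same count, because its partner then no longer informs the line contrast. The brightest probe set gave 57. Members called higher numbered 0, and 0 to 1 with 1 array left out, and 1 (ZNF233) with the construct left out of the fit. For IGF1R shRNA against control the 0 members became 0 to 15 with 1 array left out, and for sponge against IGF1R shRNA 0 to 13; a construct left with 1 array is assumed to vary like the others. Without the line as replicate block, 0 members were called in each construct contrast, as with it. Leaving the line out adds the difference between lines to the spread, so this check could hardly add calls and does not show whether the block matters. The line-by-shRNA term, called in 3 members, was called in 0 (median of probe sets, brightest probe set, or dim probe sets left out), 9 (quantile normalization), 13 (probe sets with several symbols included) and 21 (dim genes left out). Direction turned for ZNF536 in HEL against SET2 (-0.0433 with the median and -0.44 with the brightest probe set) and for ZNF667 (-0.09 to 0.16 with 1 array left out, negative without either array labelled IGF1R shRNA). With the brightest probe set it turned for ZNF585B under the shRNA label (-0.0850) and against the sponge (0.55), and the sponge minus shRNA differences of ZNF146 and ZNF813 became 0.00. With dim probe sets left out, ZNF808 gave 0.53 under the shRNA label and 0.0350 with the sponge. The causes were not tested. Without background calls, falls near the lower end of the scale have no bound.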
